A study of Saccharomyces bayanus x Saccharomyces cerevisiae with 8 samples.

Results

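The 9 genes described here encode enzymes of de novo pyrimidine nucleotide synthesis in yeast. These are URA1 (YKL216W), URA2 (YJL130C), URA3 (YEL021W), URA4 (YLR420W), URA5 (YML106W), URA6 (YKL024C), URA7 (YBL039C), URA8 (YJR103W) and URA10 (YMR271C). They were taken as a list of systematic gene names and not by a measured value, and all 9 were found among the 4238 pairs of orthologs in the deposited table. The minimum for a test was 10 reads, both alleles summed, in each culture; 4197 of the 4238 pairs met it, and all 9 of these genes were among them. By the convention of these names, URA1 and URA6 lie on the left arm of chromosome XI, URA2 on the left and URA8 on the right arm of X, URA3 on the left arm of V, URA4 on the right arm of XII, URA5 on the left and URA10 on the right arm of XIII, and URA7 on the left arm of II.

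Expression of both alleles was measured by RNA sequencing in OZY27, a hybrid that holds a S. cerevisiae and a S. bayanus genome in the same nucleus. The S. cerevisiae genome is isogenic to W303 and is labelled his3, leu2, lys2, trp1 and ura3, and the S. bayanus genome derives from CBS 4001 and is labelled ade2, his3 and lys2. There was 1 hybrid strain and no other genotype or treatment: 2 cultures, the biological replicates, were grown to log phase in YPD, a rich glucose medium, and 1 library was made from each. The 8 samples are the lanes on which these libraries were run, 5 of culture 1 (lanes 1, 2 and 5 at UCB, 6 and 8 at UCR) and 3 of culture 2 (lanes 3 and 4 at UCB, 7 at UCR), with 2350222 to 3159446 counted reads per lane.

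Yeast makes pyrimidines from carbamoyl phosphate, aspartate and phosphoribosyl pyrophosphate. Ura2 joins carbamoyl phosphate synthesis and aspartate transcarbamylase in a single protein that UTP inhibits, Ura4 (dihydroorotase) closes the ring, Ura1 (dihydroorotate dehydrogenase) oxidises it to orotate, Ura5 and its minor paralog Ura10 (orotate phosphoribosyltransferases) add the ribose phosphate, and Ura3 (orotidine monophosphate decarboxylase) yields UMP. Ura6 phosphorylates UMP, and the paralogs Ura7 and Ura8 (CTP synthases) make CTP from UTP. The activator Ppr1 responds to pathway intermediates and raises transcription of part of the pathway, URA1, URA3 and URA4 included.

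Read numbers, summed over alleles and cultures, ran from 262 for URA10 to 26999 for URA7. Levels are given as reads per mappable kilobase per 1000000 reads of that genome after TMM scaling. They can thus be compared between genes of unlike length. In each genome and culture URA5 had the highest level and URA10 the lowest, with URA8 next to last. The S. cerevisiae allele of URA5 stood at 2124 ± 395 and that of URA10 at 26.1 ± 2.73 (SD, n = 2 cultures), against 1422 ± 301 and 11.7 ± 2.65 for the S. bayanus alleles. The level of S. cerevisiae URA5 lay above 98.5% of the tested genes and that of S. bayanus URA10 above only 6.36%.

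Between these ends, with the S. cerevisiae value first, lay URA7 (708 ± 172 and 723 ± 170), URA6 (738 ± 4.28 and 606 ± 11.5), URA3 (489 ± 96.8 and 463 ± 62.5) and URA1 (364 ± 3.75 and 318 ± 16.5). They were followed by URA4 (269 ± 31.2 and 221 ± 25.0), URA2 (242 ± 35.4 and 202 ± 5.71) and URA8 (88.5 ± 10.9 and 120 ± 44.5). URA6 and URA7 changed places between the cultures in the S. cerevisiae genome, and URA4 and URA2 in both genomes. The rest of the order held in both cultures and both genomes.

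**Figure D1:**
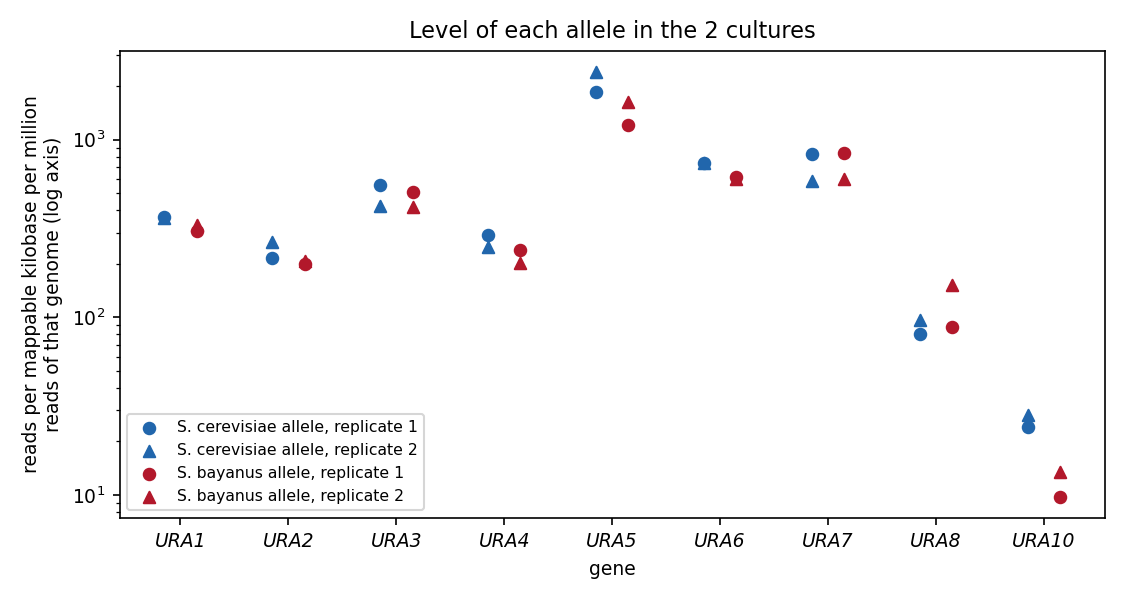
Level of each allele of the 9 genes, in reads per mappable kilobase per 1000000 reads of that genome on a log axis, with 1 point for each culture (circles, culture 1; triangles, culture 2). URA5 is the highest and URA10 the lowest gene for both alleles, and the S. cerevisiae allele of URA10 sits above its S. bayanus allele in both cultures.

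The design asks for which genes the alleles are expressed unequally. Ratios are log2 of S. bayanus over S. cerevisiae after TMM scaling of each allele column, which left the median gene at -0.0029. A negative value marks a higher S. cerevisiae allele on this scale, which is set relative to the typical gene. The S. cerevisiae allele was higher in 4 of the 9 genes (URA4, URA5, URA6 and URA10) and the S. bayanus allele in 0 at an adjusted p under 0.05 (edgeR's quasi-likelihood test, Benjamini-Hochberg over all 4197 genes). Over all tested genes 26.9% were called toward S. cerevisiae, 26.6% toward S. bayanus and 53.5% in either direction. The share of the 9 genes called is above the first of these and below the last, and with 9 genes nothing is read from either. The fitted ratio was below 0 in 7 of the 9 genes, with a median of -0.25, where 50.1% of all genes lay below 0. The median size of the ratio was 0.28 (1.22-fold) against 0.37 (1.30-fold) over all genes.

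Carbamoyl phosphate to orotate is covered by URA2, URA4 and URA1. For URA4 the S. bayanus allele gave 1945 and 873 reads in cultures 1 and 2 and the S. cerevisiae allele 2247 and 960. Its lane ratios ran from -0.42 to -0.15, below 0 in 8 of 8 lanes, and the fitted ratio was -0.29 with a standard error of 0.088, or 1.22-fold toward S. cerevisiae (edgeR, adjusted p = 0.0400). The call is at the edge of the threshold: it was lost without lane 5 or lane 7 (edgeR, adjusted p = 0.0516 and 0.0545), with DESeq2 (adjusted p = 0.163) and with 1 library size for both alleles (-0.17, edgeR, adjusted p = 0.144), a scaling that moves the median gene by 0.11 toward S. bayanus. It was also lost with the UCR lanes alone (-0.24, edgeR, adjusted p = 0.110) and without the culture as a block (-0.29, edgeR, adjusted p = 0.317).

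URA2 and URA1 did not pass the test. URA2 gave 8062 and 4423 S. bayanus reads and 8316 and 5154 S. cerevisiae reads in cultures 1 and 2, with a fitted ratio of -0.25 (95% interval -0.48 to -0.019, edgeR, adjusted p = 0.0668). Its ratio was below 0 in 8 of 8 lanes, and it passed without lane 4 (-0.26, edgeR, adjusted p = 0.0321) and with the UCR lanes alone (-0.30, edgeR, adjusted p = 0.00468). With a fitted trend of allele ratio on the GC difference of the orthologs taken out it was -0.066 (edgeR, adjusted p = 0.568). For URA1, with 1965 and 1115 against 2229 and 1106 reads, the ratio was -0.20 (95% interval -0.43 to 0.031, edgeR, adjusted p = 0.119). It was below 0 in 8 of 8 lanes, and with the GC trend taken out it was -0.067 (edgeR, adjusted p = 0.576).

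Orotate to UMP is covered by URA5, URA10 and URA3, and holds the largest fitted ratios among the 9 genes. URA5 gave 765, 759, 669, 750 and 734 S. bayanus reads in lanes 1, 2, 5, 6 and 8 of culture 1, and 992, 889 and 739 in lanes 3, 4 and 7 of culture 2. Its S. cerevisiae allele gave 1050, 1066, 1074, 1072 and 1036 reads in the same lanes of culture 1, and 1330, 1129 and 1016 in those of culture 2. The S. cerevisiae allele was higher in every lane, and lane ratios ran from -0.75 to -0.49. The fitted ratio of URA5 was -0.58 with a standard error of 0.079, or 1.497-fold toward S. cerevisiae (edgeR, adjusted p = 0.00366), and the authors' deposited table also calls this gene toward S. cerevisiae, as it calls 19.8% of all genes (48.9% in either direction).

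The mappable share of URA5 is low among genes: 386 of its 681 bases were mappable in each genome (56.7%, where the median S. cerevisiae gene has 90.9%). The GC content of its S. bayanus ortholog minus that of its S. cerevisiae ortholog was -2.62 percentage points, a difference lower than in all but 0.543% of genes. With the GC trend taken out, the ratio of URA5 was -0.24, or 1.18-fold (edgeR, adjusted p = 0.0368). Without the culture as a block it did not pass (-0.58, edgeR, adjusted p = 0.158).

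URA10, the minor paralog, had the widest ratio of the 9 genes on the fewest reads. Its S. bayanus allele gave 11, 6, 9, 10 and 12 reads in lanes 1, 2, 5, 6 and 8 and 16, 7 and 12 in lanes 3, 4 and 7, and its S. cerevisiae allele 22, 27, 27, 21 and 16 and then 20, 24 and 22. The S. cerevisiae allele had more reads in 8 of 8 lanes, and over all lanes the ranges of reads touched at 16 only. The S. bayanus share of reads was 29.8% (exact binomial 95% interval 22.9 to 37.5) in culture 1 and 34.7% (25.5 to 44.8) in culture 2. The fitted ratio was -1.19 with a standard error of 0.22, or 2.28-fold toward S. cerevisiae (edgeR, adjusted p = 0.00843), a size above that of 90.3% of tested genes. It is the 1 gene of the 9 called at 2-fold or more, where 13.2% of all genes were. With DESeq2 it was just short of passing (adjusted p = 0.0506). The authors' deposited table calls URA10 and URA5, and no other of the 9 genes.

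Within each genome URA10 stood far below URA5, its major paralog. Its level was 0.809% and 0.828% of that of URA5 in the S. bayanus genome in cultures 1 and 2, and 1.31% and 1.17% in the S. cerevisiae genome. The log2 difference between the genomes, S. bayanus minus S. cerevisiae, was -0.59 ± 0.14 (SD, n = 2 cultures), with no test. At UCB alone it was -0.76 and at UCR alone -0.32. How reads shared by paralogs were counted is not given in the sources used here, so the values of URA5 and URA10, and of URA7 and URA8, are uncertain to that extent.

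URA3 is the gene of this pathway that is labelled mutant in a parent, as ura3 in the S. cerevisiae genome only. Reads were counted from both alleles, 2534 and 1103 from S. bayanus and 2704 and 1027 from S. cerevisiae in cultures 1 and 2. Lane ratios ran from -0.27 to -0.011 in culture 1, and were -0.15, 0.20 and -0.090 in lanes 3, 4 and 7 of culture 2. The fitted ratio was -0.074 (95% interval -0.30 to 0.16, edgeR, adjusted p = 0.523), so no difference between the alleles was detectable, and differences within that interval are possible. Its S. bayanus ortholog is richer in GC by 5.70 percentage points, more than in 87.9% of genes, and with the GC trend taken out its ratio was -0.26 and passed the test (edgeR, adjusted p = 0.0389).

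Values of the other genes labelled mutant follow, with no test of a difference from URA3. LEU2, labelled in the S. cerevisiae genome only, had a ratio of 3.99, or 15.9-fold toward S. bayanus (edgeR, adjusted p = 0.000163). TRP1, also labelled in S. cerevisiae only, had 2.07, or 4.21-fold (edgeR, adjusted p = 0.000718). ADE2, labelled in S. bayanus only, was 1.22-fold higher for the S. bayanus allele (0.28, edgeR, adjusted p = 0.0378). Of the 2 genes labelled in both genomes, LYS2 was 9.78-fold higher for S. cerevisiae (-3.29, edgeR, adjusted p = 0.000263) and HIS3 did not pass (0.73, edgeR, adjusted p = 0.216). The value of HIS3 averages unlike cultures, -0.25 in culture 1 and 1.71 in culture 2. The labels do not say which lesion each allele carries, so a count for such a gene is a count of transcript and not of a working enzyme.

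**Figure D2:**
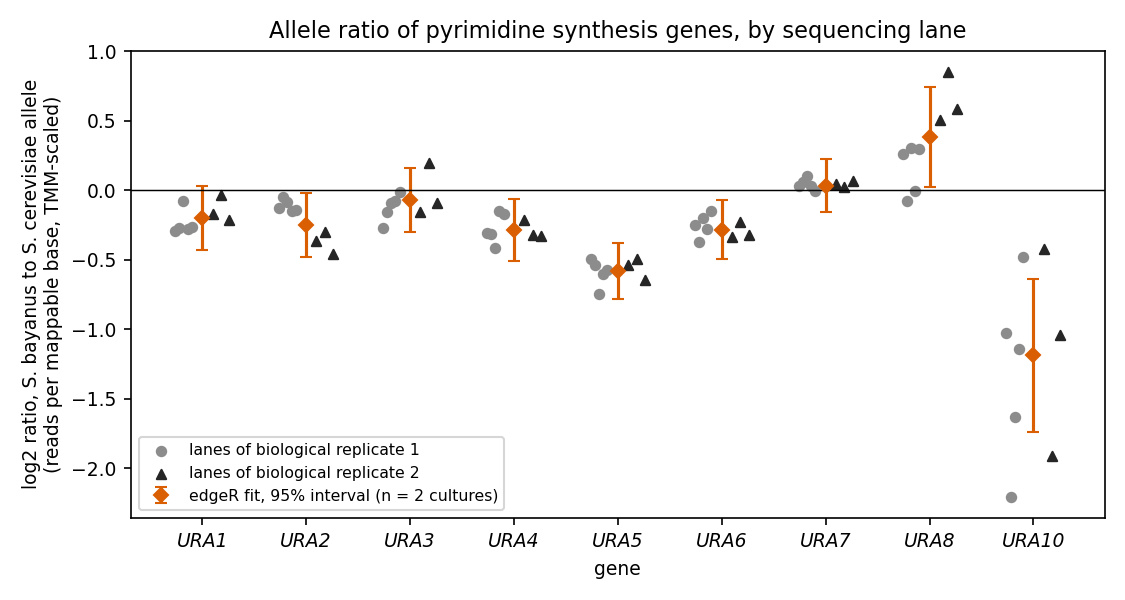
Log2 ratio of the S. bayanus to the S. cerevisiae allele for the 9 genes in each of the 8 lanes (circles, culture 1; triangles, culture 2), with the edgeR fit and its 95% interval as a diamond. URA1, URA2, URA4, URA5, URA6 and URA10 lie below 0 in all lanes. The URA8 lanes of culture 2 lie above all those of culture 1, and the lanes of URA10 spread widest.

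UMP to CTP is covered by URA6, URA7 and URA8. URA6, the UMP kinase, gave 2652 and 1361 S. bayanus reads and 3022 and 1509 S. cerevisiae reads in cultures 1 and 2. Its ratio was below 0 in 8 of 8 lanes, from -0.38 to -0.15, and the fit gave -0.28 with a standard error of 0.085, or 1.22-fold toward S. cerevisiae (edgeR, adjusted p = 0.0373). As for URA4 the call was lost with DESeq2 (adjusted p = 0.140), with 1 library size for both alleles (-0.17, edgeR, adjusted p = 0.135) and without the culture as a block (edgeR, adjusted p = 0.281). Unlike that of URA4, the call of URA6 was lost without lane 2 (edgeR, adjusted p = 0.0524) and held with the UCR lanes alone (edgeR, adjusted p = 0.0463). With the GC trend taken out the ratio of URA6 was wider, -0.43 (edgeR, adjusted p = 0.00320).

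URA7, the major CTP synthase gene, had nearly equal alleles. It gave 10261 and 3870 S. bayanus reads and 9488 and 3380 S. cerevisiae reads, and lane ratios between -0.0055 and 0.10. The fitted ratio was 0.032 (95% interval -0.16 to 0.22, edgeR, adjusted p = 0.743), and 4.43% of tested genes had a smaller ratio in size. Its paralog URA8 was the member with the highest ratio, 0.39 (95% interval 0.026 to 0.75), which did not pass the test over both cultures (edgeR, adjusted p = 0.0688). Without lane 4 or lane 6 it passed, at 0.33 and 0.41 (edgeR, adjusted p = 0.0420 and 0.0402), as it did with the UCR lanes alone (0.33, edgeR, adjusted p = 0.0360). With the GC trend taken out it was 0.21 (edgeR, adjusted p = 0.145).

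The allele ratio of URA8 differed between the cultures. Its S. bayanus allele gave 194, 203, 222, 208 and 219 reads in lanes 1, 2, 5, 6 and 8 of culture 1, and 314, 370 and 260 in lanes 3, 4 and 7 of culture 2. Its S. cerevisiae allele gave 156, 205, 170, 194 and 167 reads in those lanes of culture 1, and 201, 183 and 151 in culture 2. Scaled to the depth of each lane, the S. bayanus level was 80.4 to 104 in culture 1 and 140 to 169 in culture 2. The S. cerevisiae level was 69.9 to 88.7 and 94.0 to 98.6, so neither allele overlapped between the cultures, and the gap was wider for S. bayanus. Lane ratios were 0.26, -0.080, 0.30, -0.0051 and 0.30 in culture 1 and 0.51, 0.85 and 0.58 in culture 2, without overlap.

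The shift of URA8, culture 2 minus culture 1, was 0.50, or 1.42-fold toward S. bayanus, and its standard error 0.12 (edgeR interaction test, adjusted p = 0.00208). Each culture gave 1 library, so this test compares 2 libraries against the spread between their lanes, and culture and library cannot be told apart. The shift was 0.49 with the UCR lanes alone, where it did not pass on 3 lanes (edgeR, adjusted p = 0.0657). The S. bayanus ortholog of URA8 is richer in GC by 5.42 percentage points, and with the GC trend of every lane taken out the shift was 0.36 (edgeR, adjusted p = 0.0102).

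URA2 moved the other way between the cultures. Its lane ratios were -0.13, -0.051, -0.084, -0.15 and -0.14 in lanes 1, 2, 5, 6 and 8 of culture 1 and -0.37, -0.30 and -0.46 in lanes 3, 4 and 7 of culture 2, without overlap. The shift was -0.26 and its standard error 0.052 (edgeR interaction test, adjusted p = 0.000408). The S. bayanus share of reads, not scaled by genome, fell from 49.2% (exact binomial 95% interval 48.5 to 49.99) to 46.2% (45.2 to 47.2). With 1 library size for both alleles the shift was smaller, -0.18 (edgeR interaction test, adjusted p = 0.0168). The shift was -0.26 with the GC trend taken out too. The S. bayanus allele stood 1.04-fold and the S. cerevisiae allele 1.23-fold higher in culture 2 after TMM scaling. Over all tested genes the ratio of 17.9% differed between the cultures, 8.72% with a higher S. bayanus share in culture 2, as in URA8, and 9.2% with a lower one, as in URA2, so 2 of 9 is near the share over all genes. The other 7 genes did not pass, with shifts from -0.045 to 0.23. The largest of these, that of URA10, had an interval of -0.62 to 1.08.

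**Figure D3:**
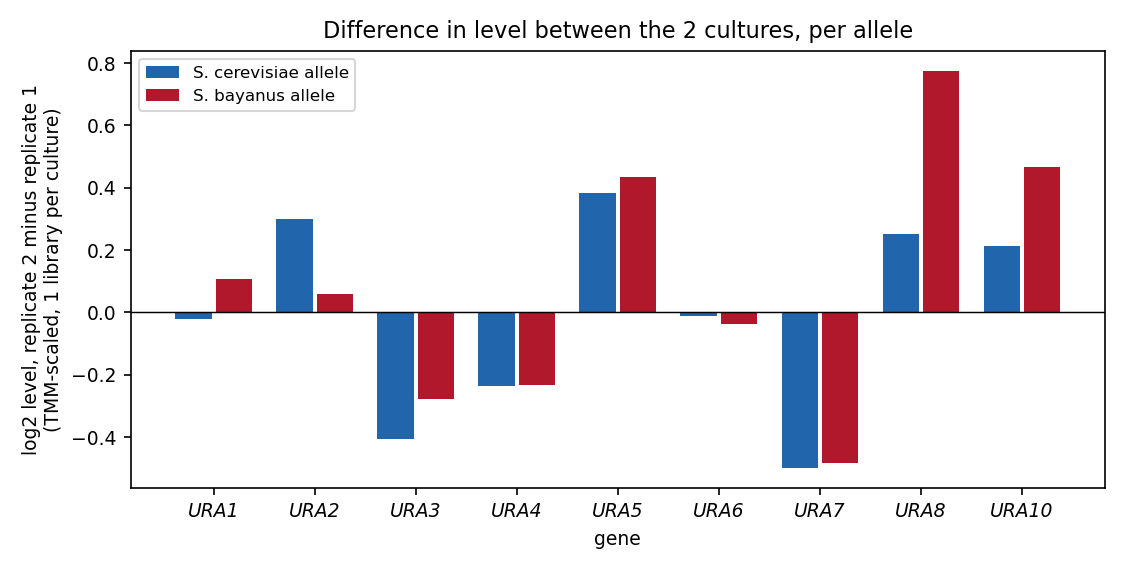
Difference in level of each allele between the cultures (replicates 1 and 2 on the axis), log2 of culture 2 minus culture 1 after TMM scaling, with 1 library per culture and no error bar. URA3, URA4, URA6 and URA7 are lower in culture 2 for both alleles, URA6 only slightly, and URA2, URA5, URA8 and URA10 higher for both. The alleles of URA1 moved in opposite directions. Among the 9 genes the alleles of URA8 are furthest apart.

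Apart from the allele ratio, the summed level of both alleles differed between the cultures for several members. This comparison has 1 library in each culture and no test. Summed levels are given as CPM, reads per 1000000 of all reads counted in a lane, a scale on which the median gene was lower in culture 2 by a log2 difference of -0.12. Lanes of the cultures did not overlap for 5 of the 9 genes, URA3, URA4 and URA7 lower in culture 2 and URA5 and URA8 higher, where 53.5% of all tested genes did not overlap, 35.5% lower and 17.9% higher in culture 2.

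On the CPM scale, though not after TMM scaling, URA7 differed most in size among the 9 genes, with 1292 to 1417 CPM in the lanes of culture 1 (median 1335) and 842, 872 and 922 in those of culture 2. The log2 difference was -0.61, lower than in all but 5.96% of tested genes. Both alleles moved by nearly the same amount, with log2 differences of -0.48 for S. bayanus and -0.50 for S. cerevisiae after TMM scaling. URA3 stood at 329 to 382 CPM in culture 1 and 246 to 267 in culture 2, a difference of -0.46. URA4 stood at 279 to 291 and 216 to 227, a difference of -0.35.

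URA8 was higher in culture 2, with 120 to 144 CPM in the lanes of culture 1 and 175 to 189 CPM in those of culture 2, a log2 difference of 0.45 that is above that of 92.8% of tested genes. Its S. bayanus allele was 1.71-fold and its S. cerevisiae allele 1.19-fold higher after TMM scaling. URA5 stood at 578 to 641 and 690 to 787 CPM, a difference of 0.28. URA1, URA2, URA6 and URA10 overlapped between the cultures. After TMM scaling of the lanes the difference of URA7 was -0.49 and that of URA8 0.56, and URA2 no longer overlapped, at 0.18. On that scale URA8, and not URA7, differed most among the 9 genes, 3 of them lay higher and 3 lower in culture 2 without overlap, and the balance over all genes turned, to 1080 higher and 964 lower against 753 and 1491 on the CPM scale.

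The balance of the CTP synthase paralogs was thus unlike in the 2 libraries, in both genomes. In the S. bayanus genome the level of URA8 was 8.97% to 12.1% of that of URA7 in the lanes of culture 1 and 22.4% to 28.1% in those of culture 2. In the S. cerevisiae genome it was 8.41% to 10.9% in culture 1 and 15.8% to 17.3% in culture 2. Lanes of the cultures did not overlap in either genome. The log2 difference between the genomes was 0.11 in culture 1 and 0.61 in culture 2, a mean of 0.36 ± 0.36 (SD, n = 2), so over both cultures it is no larger than its spread.

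**Figure D4:**
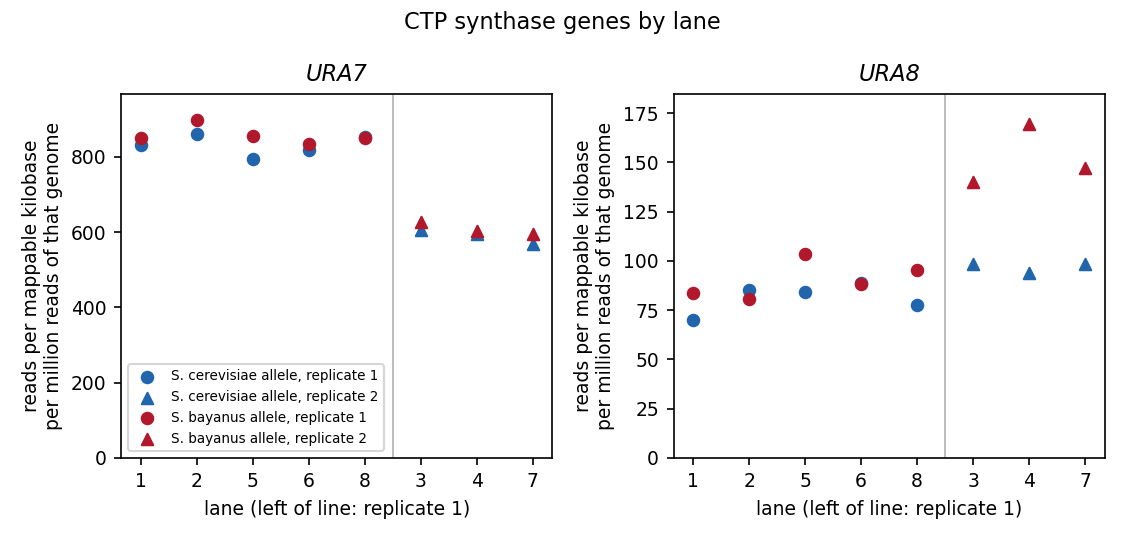
Level of the URA7 and URA8 alleles in each lane, in reads per mappable kilobase per 1000000 reads of that genome, with culture 1 left and culture 2 right of the line. Both alleles of URA7 are lower and both alleles of URA8 higher in all lanes of culture 2 than in any lane of culture 1, and the S. bayanus allele of URA8 stands furthest above.

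A ratio difference between the sequencing sites, a technical batch, was called in 0 of the 9 genes and 0% of all tested genes (edgeR interaction test with a culture term). At an unadjusted p under 0.05 there were 0 of the 9 and 221 of all 4197 genes (edgeR). The difference UCR minus UCB was at most 0.10 in size on the log2 scale in 8 of the genes, and 0.47 (95% interval -0.37 to 1.30) for URA10.

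Other genes that regulate, take up, salvage or use pyrimidines were taken as fixed lists. Of 20 listed genes 18 were in the table, and FCY2 and CDD1 were not analysed here. The S. bayanus allele was higher in 4 and the S. cerevisiae allele in 6 of the 18, near the 26.6% and 26.9% of all genes called in these directions. Their ratios had a median size of 0.43 (1.34-fold) against 0.37 over all genes. PPR1, the activator of the pathway, gave 595 and 204 S. bayanus and 567 and 192 S. cerevisiae reads, a ratio of -0.054 (95% interval -0.32 to 0.22, edgeR, adjusted p = 0.694).

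Uptake and salvage held the widest ratios of these lists. FUI1, the uridine permease, was 2.995-fold higher for the S. bayanus allele, at 204 ± 35.0 against 68.1 ± 10.6 (SD, n = 2; ratio 1.58 ± 0.091 SE, edgeR, adjusted p = 0.000482). FUR4, the uracil permease, did not pass (0.40, edgeR, adjusted p = 0.0806). FCY1, cytosine deaminase, was 3.14-fold higher for the S. cerevisiae allele, at 1219 ± 292 against 390 ± 104 (ratio -1.65 ± 0.089 SE, edgeR, adjusted p = 0.000416). URH1, uridine nucleosidase, was 2.03-fold higher for S. cerevisiae (-1.02, edgeR, adjusted p = 0.00412).

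All 4 tested salvage genes passed, FUR1 and URK1 at under 1.5-fold, where 53.5% of all genes passed. FUR1, uracil phosphoribosyltransferase, was higher for S. cerevisiae (-0.29, edgeR, adjusted p = 0.0320) and URK1, uridine kinase, for S. bayanus (0.44, edgeR, adjusted p = 0.0132). The nucleotidase genes went in opposite directions, SDT1 1.63-fold toward S. cerevisiae (-0.70, edgeR, adjusted p = 0.0105) and PHM8 1.62-fold toward S. bayanus (0.69, edgeR, adjusted p = 0.00898). Among 9 genes that turn nucleotides into DNA precursors, the S. bayanus allele was higher in 1 and the S. cerevisiae allele in 2, where 53.5% of all genes were called in either direction. The 3 were all under 1.5-fold, where 29.6% of all genes were called at 1.5-fold or more.

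**Figure D5:**
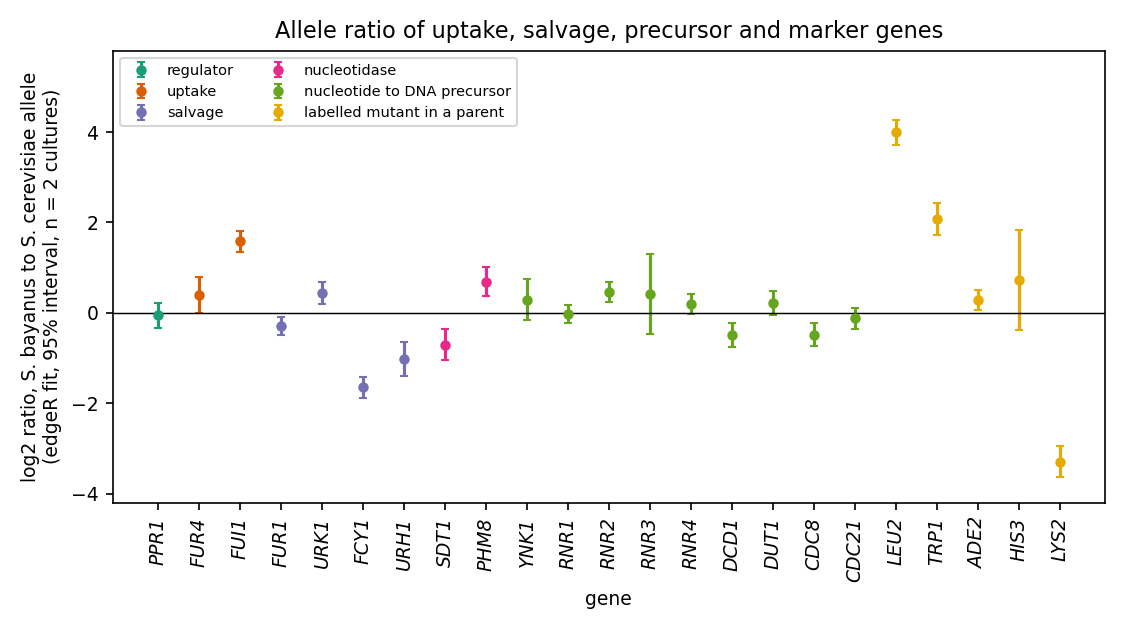
Fitted log2 ratio of the S. bayanus to the S. cerevisiae allele with its 95% interval (edgeR, n = 2 cultures) for the 18 related pathway genes and the 5 genes labelled mutant in a parent. FUI1 at 1.58 and FCY1 at -1.65 lie furthest from 0 among the pathway genes, and LEU2 at 3.99 and LYS2 at -3.29 among the labelled genes.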

How the data were processed

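The deposited table gives a raw read count for every ortholog pair in each lane, separately for the alleles, and the mappable bases of each ortholog. The submitters' processing notes name Bowtie. No version, genome build or rule for reads shared by genomes or paralogs is stated in the sources used here. The authors also deposited natural log ratios and resampling p-values for each biological replicate, a score of -1, 0 or 1 for the call, and the GC difference as a fraction, given here in percentage points. Their 4 columns of counts summed by replicate were not used here.

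Lanes of a library are repeat runs, so counts were summed to 2 cultures by 2 alleles. edgeR 4.0.16 (R 4.3.3) fitted the allele difference with the culture as a block, since a library holds both alleles of its culture. TMM factors were computed for each allele column and log mappable length was an offset. Genes needed 10 reads over both alleles in each culture. The culture test used the 16 lane columns with lane as a block, and the site test sums by culture and site. DESeq2 1.42.0 was an alternative. Summaries used Python 3.11.15 with pandas 2.3.3 and scipy 1.17.1. Levels were scaled with the same TMM factors. The tests were checked on simulated data, with results not given here. For the culture and site tests, the simulated noise between cultures was the same for both alleles. That check therefore does not cover variation between libraries that is particular to an allele. Exact binomial intervals cover counting error only, since reads without molecular identifiers are not independent molecules.

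The GC trend was a lowess with span 0.5. The files give systematic names only, and gene symbols follow common usage for yeast. All 9 genes are named, and of the related lists PPR1 and the genes past the threshold at 1.5-fold or more. FUR4, FUR1 and URK1 were named after their values were seen. The genes and lists were chosen with earlier results of these data known. The comparison of summed levels between cultures was added after seeing the data. No sequence was used here.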

Additional observations from a re-analysis of the deposited data

Results flagged for a closer look

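The allele ratio of URA8 differed between the cultures by 0.50 on the log2 scale, and that of URA2 by -0.26, each by the edgeR test of the difference itself (adjusted p = 0.00208 and 0.000408), with 1 library per culture. Among the 5 lanes of culture 1, the ratio of URA1 in lane 5, -0.076, stood apart from the other 4, which lay between -0.30 and -0.26. It was 1 of 18 sets of 5 lanes examined in this way, and chance sets about 1 in 20 apart.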

How the results depend on the processing

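The number of the 9 genes with an allele difference, 4, was 2 with 1 library size for both alleles, 1 with no replicate block, 1 with DESeq2 and 7 when each lane was taken as a replicate, although lanes repeat 1 library. It was 3 to 6 with each lane left out. Over all tested genes the 2247 calls became 2133 with 1 library size, 866 with no replicate block and 1501 with DESeq2. They were 3172 with lanes as replicates and 2042 to 2381 with each lane left out. URA10 passed under 18 of 19 alternatives and URA5 under 18, URA6 under 15 and URA4 under 13. The only allele ratio that changed sign was that of URA3, 0.041 with 1 library size for both alleles. That scaling called the S. bayanus allele higher in 1320 genes and the other allele in 813, against 1118 and 1129. With a culture left out there is no test.

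The shift of URA2 between cultures passed under 17 of 17 alternatives and that of URA8 under 16. Over all genes the 752 calls became 408 with the UCB lanes alone, 329 with the UCR lanes alone and 279 with DESeq2. With the GC trend taken out the S. bayanus share was higher in culture 2 for 227 genes and lower for 610, against 366 and 386. The UCR lanes alone called 1 of the 9 genes. Shifts of 6 genes that passed under no alternative changed sign, and the cause was not tested. URA4 was at 0.010 with RLE size factors, 0.071 with 1 library size, 0.027 with no filter, 0.029 with at least 50 reads, 0.079 with UCB lanes and 0.0098 with DESeq2. URA7 was at 0.023, 0.084, 0.040 and 0.042 in the first 4 of these, 0.023 with DESeq2, 0.11 with UCR lanes and 0.0061 without the GC trend. URA6 was at 0.040 with 1 library size and URA10 at -0.17 with UCR lanes. URA3 and URA5 were at -0.054 and -0.0018 without the GC trend. With each lane left out, shifts ran from -0.031 to 0.053 for URA4, -0.060 to 0.021 for URA6, 0.0010 to 0.057 for URA7 and -0.10 to 0.60 for URA10.

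Of the alternatives added after seeing the data, the UCR lanes alone, with 2 lanes against 1, left the summed levels of 8 genes without overlap. The share over all genes with these lanes alone is not given, so nothing is read from that count. URA1 changed sign to 0.038 with TMM scaling, and URA10 to -0.035 with UCB lanes. The balance of URA10 to URA5 was -0.76 at UCB and -0.32 at UCR. URA10 has 262 reads in all, which limits its ratio and its shift.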

Other observations

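Of the 18 related pathway genes, 4 had an allele ratio that differed between the cultures, near the 17.9% of all tested genes that did. All 4 had a lower S. bayanus share in culture 2, a direction noted after the values were seen, in which 9.2% of all genes were called (386 genes, and 610 with the GC trend taken out). They are named after their values were seen. YNK1, nucleoside diphosphate kinase, shifted by -0.73, with 1704 and 987 S. bayanus reads and 1031 and 938 S. cerevisiae reads in cultures 1 and 2. In culture 1 its ratio was 0.40, 0.50 and 0.50 in lanes 1, 2 and 5 at UCB, and 0.97 and 0.91 in lanes 6 and 8 at UCR. In culture 2 it was -0.039, -0.19 and -0.0058 in lanes 3, 4 and 7. The difference of YNK1 between the sites was 0.31 (edgeR interaction test, adjusted p = 0.875). FUR4 shifted by -0.58, DUT1, dUTP pyrophosphatase, by -0.28 and RNR4, a ribonucleotide reductase subunit, by -0.22. The largest shift among the genes labelled mutant was that of HIS3, at 1.92, with 356 and 810 S. bayanus reads against 399 and 224 S. cerevisiae reads.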
